A study of Arabidopsis thaliana with 4 samples.

Results

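The ratio of RNA on large polysomes to total RNA was described in unstressed Arabidopsis thaliana seedlings, probe set by probe set. A probe set was taken when at least 1 of the 2 arrays, large-polysome RNA or total RNA of control seedlings, gave a signal above 140 array units. This held for 14104 of 22746 non-control probe sets, and for 7487 of the 13356 genes with a probe set of their own. Of them 12521 were above 140 on both arrays, 498 in large-polysome RNA alone and 1085 in total RNA alone. The choice used the strength of a signal and not the size of the ratio. For a probe set above 140 on 1 array only, however, the side of the ratio follows from which array that was. Such probe sets and genes are included in the medians, shares and class counts, unless both arrays are named.

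The study compared RNA fractions and hypoxia in 7-d-old wild-type seedlings of the ler accession, each group on 1 ATH1 array, a chip with several short probes for each transcript. The large-polysome control came from seedlings kept in low light for 12 h. The total RNA control came from seedlings in the same low light with no time given, so a difference in sampling time, if there was one, cannot be told apart from RNA fraction. The other pair, large-polysome and total RNA after 12 h of hypoxia under the same light, shares no array with the control pair and is given beside it. No group carries a transgene or a mutation in the labels, and how many seedlings were pooled is not given in the sources used here.

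An mRNA that is being translated carries several ribosomes at once and sediments as a polysome. Large polysomes hold mRNAs with many ribosomes, which are mRNAs that initiate often, or have a long coding region, or both. Free mRNA, mRNA in ribonucleoprotein particles and mRNA with few ribosomes stay out of this fraction but remain in total RNA. The ratio of the 2 signals therefore places an mRNA relative to the average mRNA on the same arrays and does not measure translation directly.

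Signals had been scaled by the authors to the same trimmed mean, 500, on every array, and 57.2% of probe sets in large-polysome RNA and 59.8% in total RNA were above 140. With 1 array a side there is no spread between samples, so no p-value is given and a ratio of 2-fold, a log2 of 1, served only to count. In 32 genes with several probe sets above 140 on both arrays, the log2 ratios of 1 gene spanned a median of 0.45 and, at the 95th percentile, 1.58. A single gene just beyond 2-fold thus lies within the disagreement of probes for the same gene. The actin control had a ratio of 3' to 5' signal of 10.9 in large-polysome RNA, against 5.46 in total RNA, and a second actin pair gave 2.45 and 1.39. The ubiquitin control gave 1.92 in large-polysome RNA and 1.29 in total RNA, and its second pair 2.02 and 1.49. The GAPDH control gave 1.12 and 1.06, and its second pair 1.11 and 0.958.

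The 2 fractions resembled each other for most mRNAs. Among the probe sets, 276 had a large-polysome signal at least 2-fold above the total signal, which is 1.96% of those measured, and 474 one at least 2-fold below it, 3.36%. One gene could be assigned to 7559 of the measured probe sets, which gave 7487 genes, and 6598 of these genes were above 140 on both arrays. At 2-fold, 156 genes were higher (2.08%) and 208 were lower (2.78%). The median log2 ratio over all genes was -0.02, with quartiles of -0.33 and 0.29. This centre is set by the scaling of each array. With the arrays scaled on 18 spiked control probe sets instead, the median moved up by 0.61, and 1686 genes were 2-fold higher against 27 that were 2-fold lower. Class medians below are therefore given relative to the median of all genes.

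**Figure D1:**
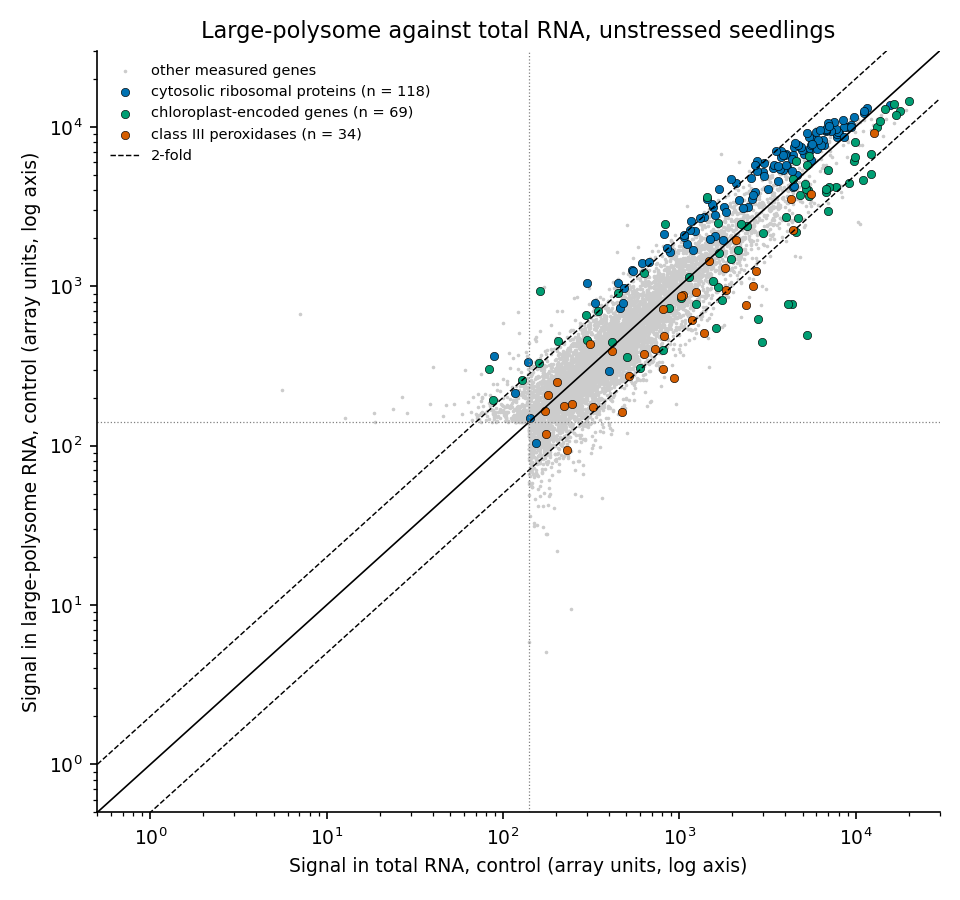
Signal in large-polysome RNA (vertical, log axis, array units) against signal in total RNA (horizontal, log axis) for 7487 genes, 1 array each. The solid line marks equal signals, dashed lines 2-fold and dotted lines the limit of 140. Most of the 118 cytosolic ribosomal protein genes lie above the solid line, most of the 34 class III peroxidase genes lie below it, and the 69 chloroplast-encoded genes scatter to both sides.

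Among genes above 140 on both arrays, the 10 highest log2 ratios ran between 1.70 and 2.53. AT5G55450, a member of the lipid transfer protein family, had a signal of 996 in large-polysome RNA, against 172 in total RNA, a log2 ratio of 2.53. The neighbouring Ole e 1 family genes AT3G16670 and AT3G16660 had 2407 and 699 in large-polysome RNA, against 508 and 203 in total RNA. AT3G05730, a defensin-like protein, had 6704 in large-polysome RNA, against 1714 in total RNA. These 4 genes were between 3.44-fold and 5.80-fold higher in large-polysome RNA.

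AT2G28790, of the thaumatin family, had 1638 in large-polysome RNA and 442 in total RNA. The defensin PDF2.5 had 526 in large-polysome RNA, against 162 in total RNA, and AT5G01870, another lipid transfer protein, had 852 against 263. AT1G65500 had 839 in large-polysome RNA and 253 in total RNA. The other 2 of the 10 were AT1G15250, cytosolic ribosomal protein L37, and petD, a chloroplast gene for a subunit of the cytochrome b6f complex, which are given with their classes below.

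Of the 10 lowest ratios, 5 belonged to chloroplast genes: psbA at -3.42, psaA at -2.72, atpH at -2.50, atpF at -2.41 and psbB at -2.17. The nuclear gene AT3G45710, a transporter of the nitrate and peptide family, had a signal of 183 in large-polysome RNA, against 957 in total RNA, a log2 ratio of -2.39. AT5G10770, an aspartyl protease, had 313 in large-polysome RNA and 1466 in total RNA. AT2G32150, a haloacid dehalogenase-like hydrolase, had 2443 in large-polysome RNA, against 10575 in total RNA, and DI19, a drought-induced zinc finger protein, had 2519 against 10343. AT3G60300 had 762 in large-polysome RNA and 2910 in total RNA. AT2G32150 and DI19 were both more than 4-fold lower on large polysomes.

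Below 140 on 1 array, the ratio is a bound. The 5 highest bounds were those of PDF1.4, JRG21, AT2G38240, AT2G25450 and AT1G73620. The defensin PDF1.4 was at least 4.91-fold higher on large polysomes, with 687 in that fraction, against 123 in total RNA. JRG21 and AT2G38240, oxygenases that hydroxylate jasmonate, were at least 4.81-fold and at least 4.21-fold higher. AT2G25450, an oxygenase of glucosinolate synthesis, was at least 3.64-fold higher, and AT1G73620, of the thaumatin family, at least 3.15-fold higher.

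At the other end, AT4G25090, a respiratory burst oxidase, was at least 3.60-fold lower on large polysomes, with 120 in that fraction, against 504 in total RNA. AT2G07751 was at least 2.98-fold lower, AT2G16750 at least 2.94-fold, AT5G14330 at least 2.91-fold and AT5G52790 at least 2.86-fold. In all, 889 genes had a bound, 294 of them higher and 595 lower in large-polysome RNA. At the edge of the choice, AT5G47970 and AT2G46150 had a higher signal of 140.1 and AT2G22100 of 140.2 and were kept, and AT5G37210 and 2 unnamed probe sets stood at the limit itself and were left out.

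Genes were then sorted into 58 functional classes, from gene symbols and from lists of loci, pseudogenes and root markers included. Without pseudogenes, 47 classes had 5 or more measured genes. The class median lay above that of all genes in 25 classes and below it in 22. The 4 highest medians among these 47 were those of Sm and LSM proteins, both subunits of the cytosolic ribosome, and mitochondrial ribosomal proteins. The 3 lowest were those of class III peroxidases, beta-glucosidases and mitochondrion-encoded genes. The members named below as highest and lowest in a class are those above 140 on both arrays, unless a bound is given. The classes other than pseudogenes and root markers hold 9.92% of the measured genes, so most genes belong to none of them.

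**Figure D2:**
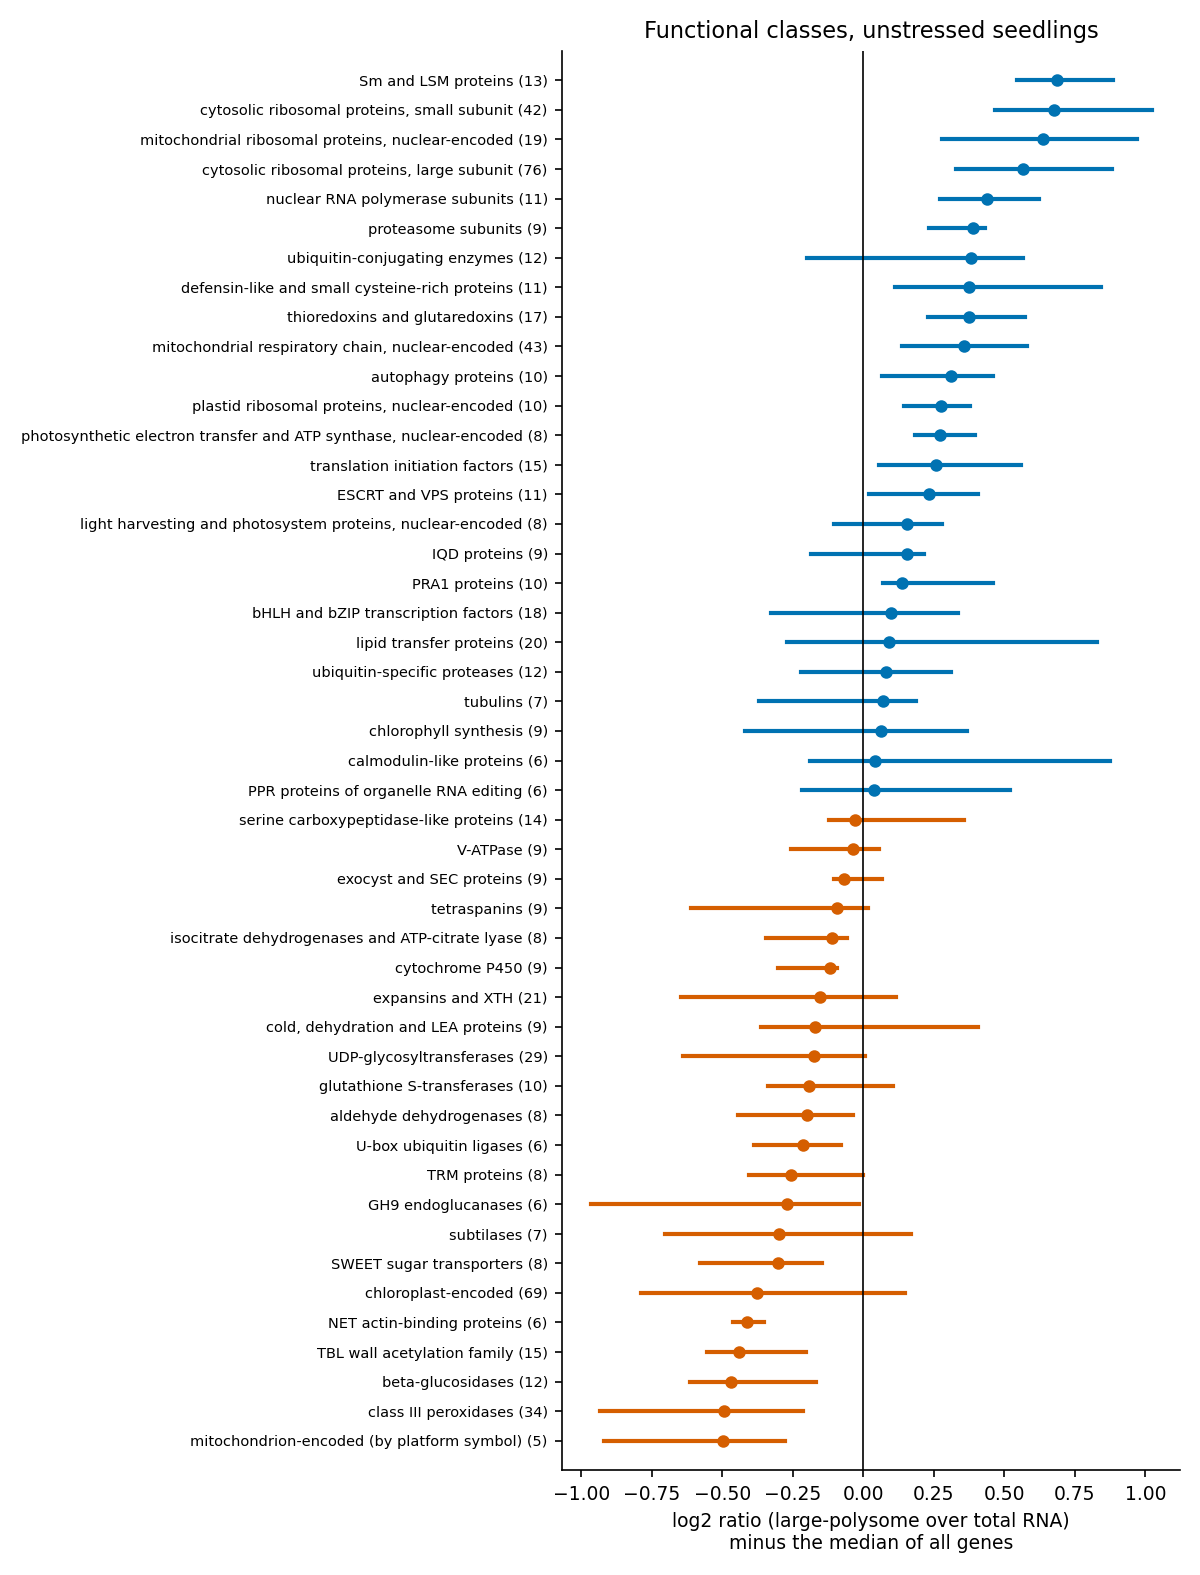
Class median of the log2 large-polysome-to-total ratio, minus the median of all genes, for the 47 classes, pseudogenes left out, with 5 or more measured genes (number measured in brackets). Points are medians over genes and lines join the quartiles. Classes above the median of all genes are blue and classes below it are orange. Protein complexes of translation, splicing and transcription are at the top, and secreted wall and root enzymes and organelle-encoded genes at the bottom.

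Cytosolic ribosomal protein mRNAs were the largest class rich on large polysomes. The cytosolic ribosome is built from about equal amounts of many small basic proteins, each made in Arabidopsis from a family of near-identical nuclear genes. Of 118 measured genes, 113 had a log2 ratio above 0, against 47.4% of all genes, and 23 were at least 2-fold higher (19.5%, against 2.08% of all genes) with none at least 2-fold lower. These 23 were 14.7% of all the genes that were 2-fold higher. Their summed signal was 4.44% of the large-polysome array, against 3.17% of the total RNA array.

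The small subunit, which reads the mRNA, had a median of 0.68 above that of all genes over 42 genes. S9 (AT5G39850) had 2132 in large-polysome RNA, against 818 in total RNA, and S14 (AT3G52580) had 4737 against 1977. At its low end were S8 (AT5G20290), with 13748 in large-polysome RNA and 15673 in total RNA, and S12 (AT1G15930), with 8606 and 8548. The last 2 were close to equal in the 2 fractions.

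The large subunit, which forms peptide bonds, had a median of 0.57 above that of all genes over 76 genes. L37 (AT1G15250) had 1052 in large-polysome RNA, against 299 in total RNA, 3.52-fold higher. L9 (AT4G10450) had 3514 in large-polysome RNA and 1429 in total RNA. At the low end of the class, P0 (AT2G40010), of the stalk that binds elongation factors, had 292 in large-polysome RNA, against 398 in total RNA, and L19 (AT4G02230) had 4189 against 4436.

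Most protein families of the ribosome lay on the same side. Of 57 protein families with a measured gene, 56 had a median above 0; the exception was L8, with 1 measured gene at -0.15. In 36 of the 40 families with several measured genes, every member was above 0. Paralogs nevertheless differed: the range of log2 ratios within a family had a median of 0.59 and reached 1.70 in L37, with 0.11 for its lowest member. Paralogs are near-identical in sequence, and probes may be shared between them, so the value of a single paralog is uncertain.

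Ribosomal proteins of the organelles showed the same direction at different sizes. The mitochondrial ribosomal proteins made from nuclear genes had a median of 0.64 above all genes, 18 of 19 above 0 (47.4% of all genes) and 4 at least 2-fold higher (2.08% of all genes). AT5G44710 had 508 in large-polysome RNA, against 209 in total RNA, and AT2G18400 had 977 against 425, while the lowest, AT5G55140 and AT1G70190, had log2 ratios of -0.05 and 0.11. The nuclear-encoded plastid ribosomal proteins had a smaller median, 0.28 above all genes, with 9 of 10 above 0 and none at 2-fold. They ran from -0.02 for AT2G43030 and 0.06 for AT5G65220 up to 0.43 for AT4G17560 and 0.56 for AT1G64510.

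The measured translation factors were close to the average mRNA or moderately above it. Of initiation factors, 49 loci were listed and 17 genes had a named probe set, and of elongation factors 12 and 2. Initiation factors, which bring the ribosome to the start codon, had a median of 0.26 above all genes, with 12 of 15 above 0. The highest were AT5G15610, a subunit of eIF3, at 0.78 and AT1G77840, eIF5, at 0.69. The lowest were AT4G27130, eIF1, at -0.48 and AT1G76810, eIF5B, at -0.27. The 2 measured elongation factor genes, both for subunits of the exchange factor eEF1B, had log2 ratios of 0.58 (AT5G12110) and 0.01 (AT5G19510).

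**Figure D3:**
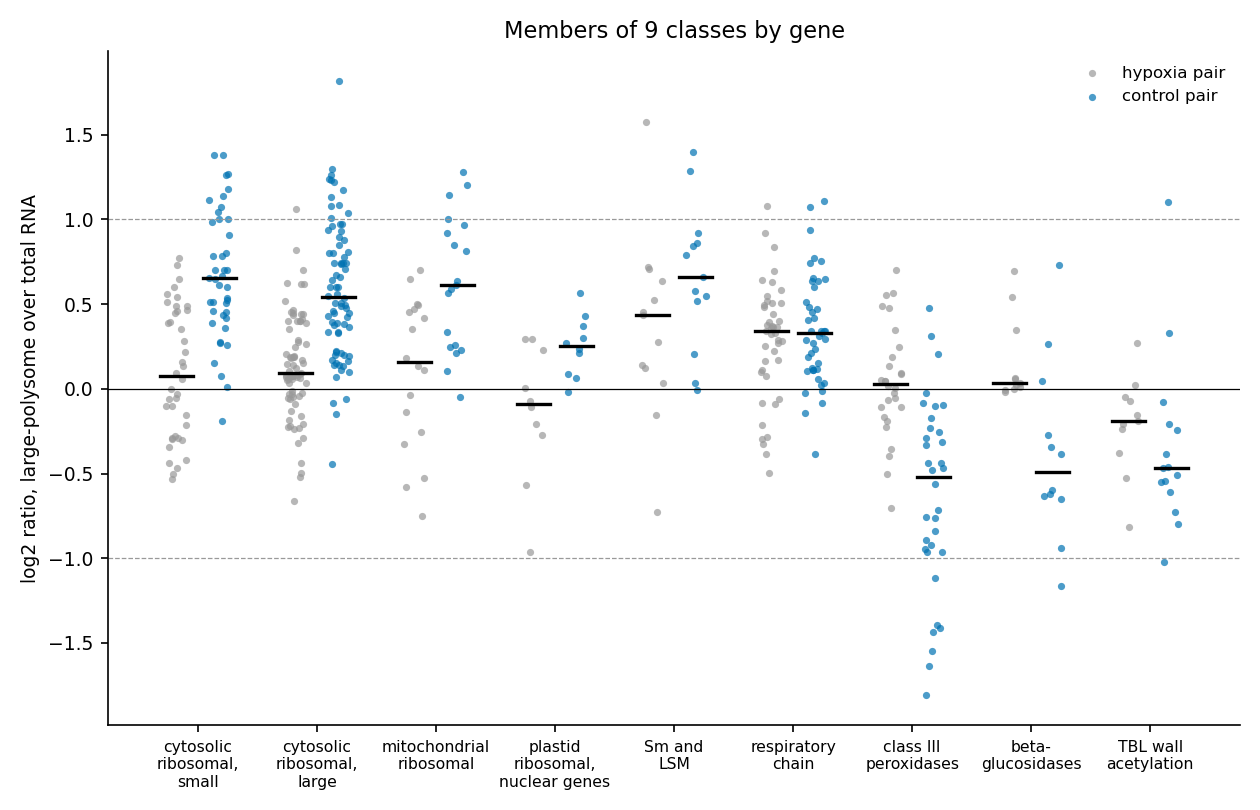
Log2 large-polysome-to-total ratio for each measured gene of 9 classes, in the hypoxia pair (grey, left) and in the control pair (blue, right), 1 array each. Black bars are medians over genes and dashed lines mark 2-fold. Both cytosolic ribosomal subunits have their control points almost wholly above 0, and class III peroxidases almost wholly below it.

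Sm and LSM proteins, RNA polymerase subunits and histone H2B were also rich on large polysomes. Sm and LSM proteins form the rings around the RNAs of the spliceosome and of mRNA decay. Their median was 0.69 above all genes, with 12 of 13 above 0 (47.4% of all genes) and 2 at least 2-fold higher (2.08% of all genes). AT4G30330 and AT2G18740, both SmE, had 829 and 468 in large-polysome RNA, against 339 and 247 in total RNA. LSM3B and LSM1A were lowest, at -0.01 and 0.03.

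Subunits of the nuclear RNA polymerases had a median of 0.44 above all genes, 10 of 11 above 0, and none at 2-fold. NRPB9B and NRPB12 were highest among those above 140 on both arrays, at 0.77 and 0.74, and NRPA2 and NRPC2 lowest, at -0.04 and 0.28. NRPC1, NRPB9A and NRPE7, above 140 in large-polysome RNA alone, had bounds of 0.14, 0.22 and 0.57. All 4 measured histone genes encoded H2B, a protein that packs DNA. HTB1 had 1103 in large-polysome RNA, against 450 in total RNA, HTB4 had 2561 against 1452, HTB11 had 1065 against 676 and HTB2 had 347 against 249. Each H2B gene was higher in the large-polysome array, by a log2 of 0.48 to 1.29. The 3 measured chromatin remodelling helicases, CHR18, INO80 and CHR17, were at -0.60, -0.53 and 0.18, so chromatin genes lay on both sides.

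Protein turnover gave a milder picture. Proteasome subunits had a median of 0.39 above all genes, with 8 of 9 above 0 and none at 2-fold. RPT4 (AT1G45000) and RPN2 (AT2G32730) were highest, at 0.72 and 0.48, and a second RPN2 gene (AT1G04810) and RPN7 (AT4G24820) lowest, at -0.60 and 0.18. Ubiquitin-conjugating enzymes had a median of 0.38 above all genes, but only 8 of 12 were above 0. UBC19 and PEX4 were highest, at 0.90 and 0.63, UBC16 was at -0.24, UBC37 had a bound of -0.38, and UBC28 had 3920 in large-polysome RNA, against 8243 in total RNA.

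Autophagy proteins had a median of 0.31 above all genes, with 8 of 10 above 0. ATG8G and ATG8D, ubiquitin-like proteins of the autophagosome membrane, were at 0.86 and 0.69, and ATG8H and ATG3 at -0.21 and -0.07. The 6 measured U-box ubiquitin ligases were all below 0, with PUB22 at -0.69, PUB49 at -0.45, PUB23 at -0.31, PUB19 at -0.16, PUB43 at -0.08 and PUB24 at -0.07.

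Small redox proteins stood on the rich side. Thioredoxins and glutaredoxins reduce disulphide bonds in other proteins. Their median was 0.37 above all genes, and 16 of 17 were above 0. Of the 17, 14 were above 140 on both arrays. AT2G47880, ROXY2 and AT1G06830, above 140 in large-polysome RNA alone, could only fall above 0. The glutaredoxin AT5G18600 had 1756 in large-polysome RNA, against 586 in total RNA, and the chloroplast glutaredoxin AT2G20270 had 1533 against 728. The lowest were TY1, a chloroplast thioredoxin, at -0.44 and AT2G30540 at 0.15.

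Nuclear-encoded subunits of the respiratory chain, imported into mitochondria after synthesis in the cytosol, had a median of 0.36 above all genes. Of 43 genes, 38 were above 0 and 2 were at least 2-fold higher (4.65%, against 2.08% of all genes). CYTC-2, cytochrome c, had 1924 in large-polysome RNA, against 892 in total RNA, and the complex III subunit AT2G40765 had 3474 against 1650. The complex I subunits AT2G47690 and AT2G20360 were lowest, at -0.38 and -0.14.

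Nuclear photosynthesis genes lay nearer the average. The 8 genes of electron transfer and the ATP synthase had a median of 0.27 above all genes, with ATPC2 at 0.57, PIFI at 0.56, NdhS at 0.31, NdhN at 0.27, TROL at 0.23, ATPC1 at 0.19, NdhL at 0.08 and PGRL1B at -0.12. The 8 light-harvesting and photosystem genes had a median of 0.16 above all genes. Within that class the antenna genes LHCB4.2 and LHCB4.1 were at -0.72 and -0.64, and LHCB4.3 at 0.13. The small photosystem subunits PSB27, PSBY, PSBW, PSAN and PSAE-1 were at 0.35, 0.27, 0.25, 0.13 and 0.04, so no gene of this class reached 2-fold.

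Class III peroxidases had the lowest median of the nuclear classes with 5 or more measured genes. These secreted haem enzymes cross-link and loosen cell walls, and many are made in roots. Of 34 measured genes, 31 had a log2 ratio below 0, against 52.6% of all genes, and 7 were at least 2-fold lower (20.6%, against 2.78% of all genes) with none 2-fold higher. The class median was -0.50 relative to all genes, and 32 of the 34 genes were above 140 on both arrays.

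AT1G34510 had a signal of 266 in large-polysome RNA, against 928 in total RNA, and AT5G19890 had 764 against 2375. AT5G40150 and AT1G49570 were at the high end, with 434 and 250 in large-polysome RNA, against 312 and 202 in total RNA. The range thus ran from -1.81 to 0.48. Markers of root moved with this class. Of 6 root markers listed, 3 had a named probe set, and all 3 were lower in large-polysome RNA.

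PYK10, a root beta-glucosidase, had 12721 in large-polysome RNA, against 19221 in total RNA. The root hair expansins EXPA18 and EXPA7 had 540 and 162 in large-polysome RNA, against 860 and 340 in total RNA. Of 7 green tissue markers, 2 had a named probe set, LHCB4.2 and LHCB4.3, with values given above. The summed signal was 13423 in large-polysome RNA and 20421 in total RNA for the root markers, and 4417 and 6952 for the green tissue markers. Most of each sum came from 1 gene, PYK10 for root and LHCB4.2, with 4006 and 6577, for green tissue. LHCB4.3 went the other way, at 0.13. In RNA from whole seedlings, fewer cells of a type and less RNA per cell cannot be told apart, and the part of root RNA in the peroxidase values was not tested.

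Other enzymes of the wall and the secretory route lay on the same side. Beta-glucosidases, which release sugars from glucosides, had a median of -0.47 relative to all genes, with 9 of 12 below 0. The 12 include BGAL16, at -0.27, which is a beta-galactosidase by its symbol. BGLU46 had 249 in large-polysome RNA, against 559 in total RNA, and BGLU15 had 737 against 1416, while BGLU44 and BGLU42 were at 0.73 and 0.05. The TBL family, which acetylates wall polysaccharides, had a median of -0.44 relative to all genes, with 13 of 15 below 0. Of the 15, 11 were above 140 on both arrays. TBL30, TBL28, TBL26 and TBL34, above 140 in total RNA alone, could only fall below 0. TBL16 and TBL18 were lowest, at -1.02 and -0.80, and TBL36, with 591 in large-polysome RNA and 275 in total RNA, and TBL39, at 0.33, were highest.

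GH9 endoglucanases, which cut wall glucans, included 2 of 6 genes at least 2-fold lower, against 2.78% of all genes. GH9C1 had 269 in large-polysome RNA, against 818 in total RNA, and GH9C2 had 674 against 1517. GH9A3 was at -0.45, GH9B8 at -0.14, GH9B7 at -0.01 and GH9B13 at 0.39. The class median was -0.27 relative to all genes.

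Expansins and XTH enzymes, which loosen walls during growth, spread to both sides, with a median of -0.15 relative to all genes. EXPA7, at -1.07, and EXGT-A3, at -0.82, were lowest, and EXPA9 and EXPA15, at 1.18 and 0.55, highest. Not every secreted class was scarce. Lipid transfer proteins had a median of 0.09 above all genes, with 10 of 20 above 0, but 4 were at least 2-fold higher (2.08% of all genes) and none 2-fold lower (2.78% of all genes). Over the members above 140 on both arrays the median of this class was -0.09 relative to all such genes. AT5G55450 and AT5G01870 led this class, at 2.53 and 1.70, and AT2G48130 and AT4G22460 were lowest, at -0.71 and -0.45.

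Defensin-like and small cysteine-rich proteins had a median of 0.38 above all genes, with 9 of 11 above 0. Most of the 11 were precursors of RALF peptide hormones, from a bound of -1.09 for RALFL27 to 0.75 for RALFL31. The defensin and LCR genes ran from 0.44 for LCR68 to a bound of 2.29 for PDF1.4. PDF2.5 and LCR69 were highest among those above 140 on both arrays, at 1.70 and 0.88. Among the peptide hormone precursors, RALFL27, above 140 in total RNA alone, was at least 2.13-fold lower, and RALFL32 and RALFL33 were the lowest of those above 140 on both arrays, at -0.86 and 0.04.

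Among metabolic and transport classes, SWEET sugar transporters had a median of -0.30 relative to all genes, with 7 of 8 below 0. SWEET11, a sucrose exporter, had 2618 in large-polysome RNA, against 3959 in total RNA. The vacuolar transporters SWEET16 and SWEET17 were at -0.81 and -0.62, SWEET2 at -0.36 and SWEET1 at 0.32. SWEET13, SWEET14 and SWEET3 were above 140 in total RNA alone, with bounds of -0.29, -0.18 and -0.15.

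UDP-glycosyltransferases, which attach sugars to hormones and secondary metabolites, had a median of -0.17 relative to all genes. Of 29, 22 were below 0 (52.6% of all genes), 3 were at least 2-fold lower (2.78% of all genes) and 1 was at least 2-fold higher (2.08% of all genes). Of the 29, 24 were above 140 on both arrays. UGT72E3, UGT71C3, UGT85A4 and UGT73B5, above 140 in total RNA alone, could only fall below 0. UGT76E11, above 140 in large-polysome RNA alone, could only fall above it. UGT76C2, which inactivates cytokinin, had 294 in large-polysome RNA, against 678 in total RNA, and UGT71C1 had 335 against 764. UGT87A2 and UGT84A3 were highest, at 1.01 and 0.80.

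Several classes of long genes were also below the average mRNA, but not all of them. IQD proteins, with a median gene span of 3673 bases, had a median of 0.15 above all genes over 9 genes. Ubiquitin-specific proteases, with a median span of 3950.5 bases, had one of 0.08 above all genes over 12 genes. NET actin-binding proteins had a median of -0.41 relative to all genes. NET1B and NET1D were at -0.57 and -0.49, NET4B, NET3A and NET2D had bounds of -0.46, -0.41 and -0.36, and NET1A was at 0.09. The 8 TRM proteins, linked to the cortical microtubules, included 6 below 0 and had a median of -0.26 relative to all genes. TRM28 had 154 in large-polysome RNA, against 309 in total RNA. TRM21 was at -0.76, TRM25 and TRM15 at -0.32 and -0.30, TRM19 at -0.16, TRM20 at 0.38 and TRM26 at 0.56, and TRM33 had a bound of -0.26. Subtilases, secreted proteases, had a median of -0.30 relative to all genes. SBT3.12 had 164.5 in large-polysome RNA, against 423 in total RNA, and ATSBT5.2, SBT4.12 and SBTI1.1 were at -0.78, -0.68 and -0.32. SBT3.5, ARA12 and SBT1.3 were at 0.06, 0.23 and 0.68.

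Classes near the average of all genes included V-ATPase subunits, exocyst and SEC proteins, tetraspanins, ubiquitin-specific proteases, tubulins, chlorophyll synthesis genes and serine carboxypeptidase-like proteins, with class medians between -0.09 and 0.08 relative to all genes. Those of tubulins, chlorophyll synthesis genes, serine carboxypeptidase-like proteins and V-ATPase subunits changed side under another scaling of the arrays. Transcription factors of the bHLH and bZIP families had a median of 0.10 above all genes, with 10 of 18 above 0. No member of these named classes was 2-fold higher. BZIP53 and TET6, named after their values were seen, were the genes at least 2-fold lower among them. Calmodulin-like proteins and PPR proteins of organelle RNA editing, with 6 measured genes each, had medians of 0.04 above all genes. In these, 2 calmodulin-like genes and 1 PPR gene were at least 2-fold higher, bounds included, against 2.08% of all genes.

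Chloroplast-encoded genes lay on both sides, many of them by 2-fold or more. They are transcribed by plastid RNA polymerases in long multi-gene transcripts and translated by ribosomes inside the organelle, which are not part of cytosolic polysomes. How the arrays' targets were primed, which bears on transcripts without a poly(A) tail, is not given in the sources used here. All 69 genes with a named probe set were measured, and 31.9% of them were at least 2-fold apart between the fractions in either direction, against 4.60% of nuclear genes. Of the 69, 9 were 2-fold higher and 13 were 2-fold lower (18.8%), and the median was -0.38 relative to all genes. Their summed signal was 1.63% of the large-polysome array, against 2.28% of the total RNA array.

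Photosystem genes were low as a group in the control pair. psbA, for the D1 protein of photosystem II, had a signal of 495 in large-polysome RNA, against 5289 in total RNA, 10.7-fold lower. psaA, for a reaction centre protein of photosystem I, had 445 in large-polysome RNA, against 2935 in total RNA. Of the 15 photosystem II genes 13 were below 0, and all 5 photosystem I genes were. The median log2 ratio was -0.51 for photosystem II and -0.70 for photosystem I, against -0.08 and 0.64 in the hypoxia pair. In that pair psbA and psaA were at -0.08 and -0.06.

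Genes for the ATP synthase had a median log2 ratio of -0.89. atpH and atpF had 773 and 774 in large-polysome RNA, against 4380 and 4113 in total RNA, and atpA had 5051 against 12158. Next to them in the genome, atpI stood on the other side, with 332 in large-polysome RNA and 161 in total RNA. Genes that lie side by side in the same transcription unit thus gave opposite ratios.

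Opposite ratios were also seen along the psbB cluster. psbB and psbT were at -2.17 and -1.57, psbN, on the opposite strand, at 0.62, psbH at -0.42 and petB at -0.19. petD, at the end of the cluster, had 935 in large-polysome RNA, against 162 in total RNA, the highest ratio of the class. ndhG had 2440 in large-polysome RNA and 827 in total RNA. ccsA, for cytochrome c assembly, had 3649 in large-polysome RNA, against 1427 in total RNA.

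Ribosomal protein genes of the chloroplast itself were near equality, with a median log2 ratio of -0.02 over 15 genes, between -1.09 for rpl16 and 1.15 for rps16. The 10 NDH complex genes had a median of -0.32, with ndhG and, as a bound, ndhF at 2-fold higher, and the 6 cytochrome b6f genes one of 0.37. rbcL, for the large subunit of Rubisco, had 307 in large-polysome RNA and 601 in total RNA. The 5 measured mitochondrion-encoded genes, recognised by symbol, were all below 0. ccb382 and nad4 were at -1.31 and -0.94, orfX at -0.52, cox1 at -0.30 and ccb452 at -0.14.

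**Figure D4:**
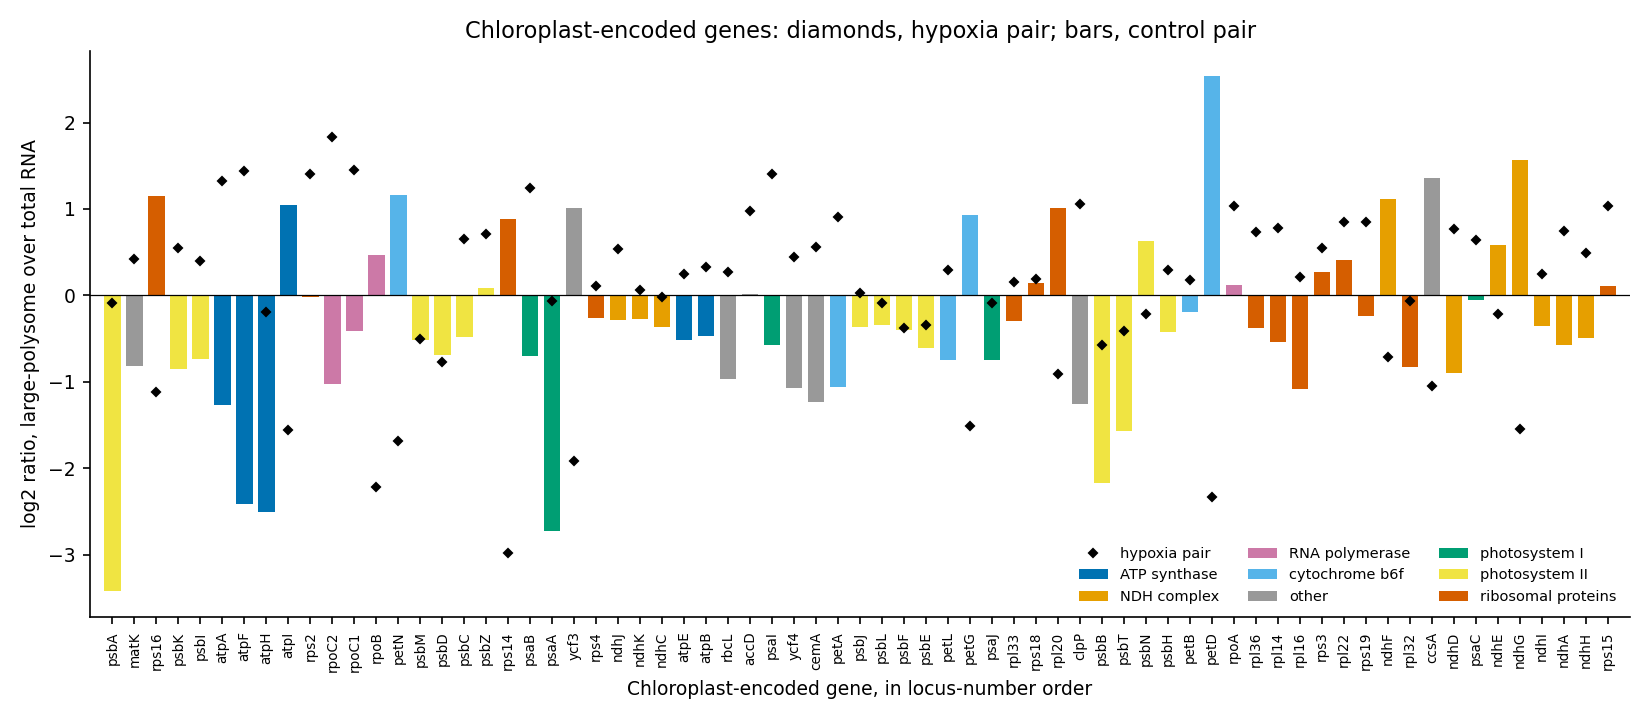
Log2 large-polysome-to-total ratio for 69 chloroplast-encoded genes in the order of their locus numbers. Diamonds are the hypoxia pair and bars, coloured by complex, the control pair, 1 array each. Bars run from -3.42 for psbA to 2.53 for petD, and the diamonds of the 9 genes that are 2-fold higher in control all lie below 0.

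Gene length, which the choice of probe sets did not use, went with the ratio. RefSeq gives the span of a gene with its introns. Among nuclear genes, the shortest quintile, of 165 to 1560 bases, had a median log2 ratio of 0.12. The next quintiles had medians of 0.06, -0.02 and -0.09, and the longest, from 3519 bases up, one of -0.14. In the shortest quintile 4.93% of genes were 2-fold higher and 2.09% 2-fold lower, and in the longest 0.406% and 3.18%.

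Leaving out the cytosolic ribosomal proteins gave medians of 0.09 in the shortest quintile and -0.14 in the longest. The rank correlation of span and log2 ratio was -0.21 across 6513 nuclear genes above 140 on both arrays, and -0.19 across 6399 without the ribosomal proteins. It is a description across genes of the same 2 arrays, which are not independent replicates. The actin and ubiquitin controls, with relatively less 5' signal in large-polysome RNA, are given above, and their part in the relation was not tested. Of the 156 genes that were 2-fold higher, 73 belonged to the shortest quintile, against 31 of the 208 that were 2-fold lower.

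**Figure D5:**
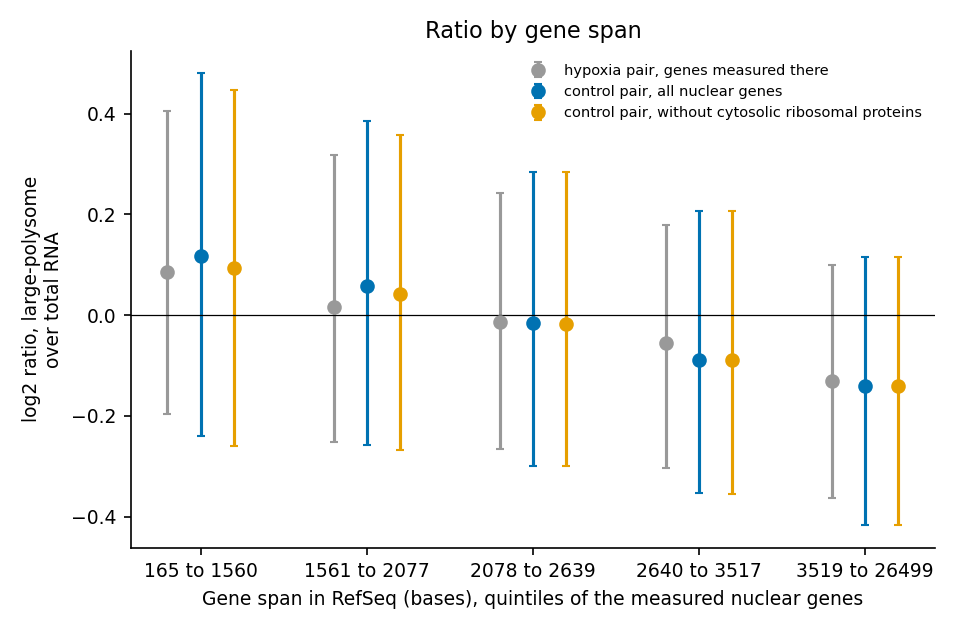
Median log2 large-polysome-to-total ratio in quintiles of gene span, the shortest genes on the left. Points are medians over genes and bars the quartiles, from left to right for the hypoxia pair, the control pair, and the control pair without cytosolic ribosomal proteins. Medians in the control pair step down from 0.12 in the shortest quintile to -0.14 in the longest, and quartiles of neighbouring quintiles overlap widely.

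The classes were also set against genes of their own length. Relative to genes of the same quintile of span, the medians were 0.55 and 0.44 for the small and large subunit of the cytosolic ribosome, 0.53 for mitochondrial ribosomal proteins and 0.68 for Sm and LSM proteins. Respiratory chain subunits were at 0.30. On the scarce side, class III peroxidases were at -0.57, the TBL family at -0.49 and beta-glucosidases at -0.37. Among cytosolic ribosomal proteins, the 60 genes in the shortest quintile had a median log2 ratio of 0.67, and the 9 genes in the longer 3 quintiles one of 0.49.

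The number of transcripts that RefSeq lists per gene and the brightness of the probe set also went with the ratio. Nuclear genes with 1 transcript had a median of 0.01, those with 2 or 3 one of -0.03, and those with 4 or more one of -0.12. The dimmest quintile of probe sets had a median of -0.09 and the brightest quintile 0.12. Signals of different probe sets are not on 1 scale, so brightness is given only as a property of the measurement.

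Set beside the hypoxia pair, classes differed in how far their position recurred. In hypoxia, 72 of 7048 genes were 2-fold higher in large-polysome RNA (1.02%) and 77 were 2-fold lower (1.09%). Of the 156 genes that were 2-fold higher in control, 139 were measured there and 12 were 2-fold higher again. Of the 208 that were 2-fold lower in control, 187 were measured and 22 were 2-fold lower again. Across 5743 nuclear genes above 140 on all 4 arrays, the log2 ratios of the 2 pairs had a rank correlation of 0.42, as a description across genes.

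Respiratory chain subunits had a median log2 ratio of 0.34 in hypoxia and 0.33 in control. H2B genes had 0.98 in hypoxia and 0.74 in control, and Sm and LSM proteins 0.43 and 0.66. For cytosolic ribosomal proteins the median was 0.09 in hypoxia (114 genes), against 0.60 in control (118 genes), with 1 gene at least 2-fold higher. Peroxidases had 0.03 in hypoxia over 28 genes, against -0.52 in control over 34. AT1G34510 and AT3G49960, at -1.81 and -1.55 in control, were not measured in hypoxia. Total RNA signal was lower in hypoxia than in control for 27 of the 34 peroxidases, and for all 7 with the lowest control ratios. Chloroplast-encoded genes changed side, with a median relative to all genes of 0.27 in hypoxia, against -0.38 in control. Of their 13 genes that were 2-fold lower in control, 8 were above 0 in hypoxia. All 9 that were 2-fold higher in control were below 0 there. Of the 47 classes, 30 lay on the same side of the median of all genes in both pairs. No difference between the pairs can be tested with 1 array a group.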

How the data were processed

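RNA was hybridised to 4 ATH1 arrays, 1 per group. The deposited values are linear intensities, 1 per probe set and array, which the authors had scaled to a trimmed mean of 500 between the 2nd and 98th percentiles, as far as the values show. The software that summarised the probes is not given in the sources used here. The chips shared a lot and a hybridisation day, per the file headers.

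The 64 control probe sets were left out. Intensities below 140 were set to 140 before log2, so a probe set above 140 on 1 array has a bound. Symbols came from the platform annotation, updated to RefSeq TAIR10.1. Of 22746 probe sets, 13513 had 1 gene (13436 matched RefSeq), 503 had several and 8730 were unnamed here. Where several probe sets served a gene, the one brightest on average was used. Among measured unnamed probe sets, 1.64% were 2-fold higher and 3.67% 2-fold lower.

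Members and lists were chosen with earlier results of these data known. The planned keyword classes could not be made, since the annotation gives no descriptions. The 58 classes rest on gene symbols and on locus lists written from general knowledge after the highest and lowest genes had been seen. Classes that need descriptions, such as kinases, and protein length were not analysed here, and gene span was used in place of the latter. No SAUR gene was named. In several other classes far fewer genes had a named probe set than loci were listed. There were 8 named genes for 38 loci of light harvesting and photosystems, 9 for 50 of the proteasome, and 10 for 41 of plastid ribosomal proteins. Class values cover only the named and measured genes.

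Named genes are the 10 highest and 10 lowest ratios above 140 on both arrays, 5 bounds at each end, and in each class described the 2 highest and 2 lowest members above 140 on both arrays, or all where 8 or fewer were measured. Classes given only by a median or a range have no members named by this rule. Other genes were named after their values were seen. Alternatives were the floor, the limit on both arrays, log2(signal + 50), quantile normalization, scaling on spiked controls, leaving out probe sets shared between genes, and averaging probe sets. The steps were tested on simulated data and run in Python 3.11.15 with pandas 2.3.3 and NumPy 2.4.6. No test or p-value was possible with 1 array a group, and the number of arrays limits the precision.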

Additional observations from a re-analysis of the deposited data

Results flagged for a closer look

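In 13 genes above 140 on all 4 arrays, the log2 large-polysome-to-total ratio was at least 1 in size in both pairs and had opposite signs in hypoxia and in control. The difference was not tested, since each pair is 1 array a side. Among 5825 genes above 140 on all arrays, 14 met this description, and 11 of them are chloroplast-encoded; the 13 given here are those in a class or among the highest and lowest ratios. Negative in hypoxia and positive in control were petD (-2.33 in hypoxia, 2.53 in control), ndhG (-1.55 and 1.56), ccsA (-1.05 and 1.35), petN (-1.69 and 1.16), rps16 (-1.11 and 1.15), atpI (-1.56 and 1.04) and ycf3 (-1.92 and 1.01). Positive in hypoxia and negative in control were atpF (1.44 in hypoxia, -2.41 in control), atpA (1.33 and -1.27), clpP (1.06 and -1.25), rpoC2 (1.84 and -1.03), the mitochondrion-encoded ccb382 (1.01 and -1.31) and the nuclear protease gene AT5G10770 (1.67 and -2.23). In petD, the signal in large-polysome RNA was 253 in hypoxia and 935 in control, and that in total RNA was 1270 in hypoxia and 162 in control.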

How the results depend on the processing

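No paired analysis was possible because each group has 1 array, and for the same reason no array could be left out. A floor of 329, the higher 60th percentile of the control arrays, gave 175 probe sets and 96 genes at least 2-fold higher, and 237 probe sets and 104 genes at least 2-fold lower, over 4975 genes. Scaling on the spiked controls gave 3052 probe sets and 1686 genes higher, and 76 probe sets and 27 genes lower. The other alternatives kept these counts within 1.5 times. Relative to all genes, the leading class medians stayed on their side under each of the 7 alternatives, between 0.58 and 0.74 for the small and 0.48 and 0.62 for the large cytosolic ribosomal subunit, 0.60 and 0.69 for mitochondrial ribosomal proteins, 0.42 and 0.75 for Sm and LSM proteins, 0.24 and 0.42 for the respiratory chain, -0.62 and -0.45 for peroxidases, -0.59 and -0.38 for beta-glucosidases and -0.43 and -0.32 for chloroplast-encoded genes. Of 48 classes, pseudogenes included, 9 changed side under at least 1 alternative, and their medians were at most 0.17 from all genes. Pseudogenes had a median of 0.43 under the higher floor, against -0.07 as reported. The cause was not tested. Values near 140 are set by the floor, and a difference in sampling time between the control arrays, which the labels do not settle, cannot be told apart from the RNA fraction.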

Other observations

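All 8 measured genes for isocitrate dehydrogenases and ATP-citrate lyase, enzymes that make and use citrate and its relatives, had log2 ratios below 0, between -0.51 and -0.04. Of all genes, 52.6% were below 0. The median of this class was -0.11 relative to all genes and -0.03 relative to genes of the same quintile of span, so it was near the average for its length. The 3 Calvin cycle genes SBPASE, RCA and PRK were at -0.37, -0.23 and -0.21. Aldehyde dehydrogenases were below 0 in 6 of 8 genes, from -0.73 for ALDH2C4. Vesicle-sorting genes of the ESCRT and VPS group had a median of 0.23 above all genes, led by SNF7.2, with 771 in large-polysome RNA, against 386 in total RNA. In hypoxia this group had a median log2 ratio of 0.67, against 0.21 in control. Cold, dehydration and LEA genes had 0.59 in hypoxia, against -0.19 in control. These medians over 9 genes include KINESIN-13A, a kinesin gene taken in by the sorting, at -0.21 in hypoxia and 0.27 in control. Relative to all genes, the control median of that class was -0.17, and 0.04 when both control arrays had to be above 140. None of these differences was tested.

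Among nuclear genes above 140 on both arrays, 15 of the 20 highest ratios belonged to the shortest quintile of genes, against 4 of the 20 lowest. In the hypoxia pair, 18 of the 20 highest had a log2 ratio above 0, and 14 of the 18 measured among the 20 lowest had one below 0. The 20 lowest include the peroxidases AT1G34510 and AT5G19890.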
